A study of Mus musculus with 5 samples.

Results

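The 36 genes described here carry, convert and break down retinoids, the vitamin A compounds. They were chosen by symbol from a list of retinoid binding proteins, carrier receptors, dehydrogenases, ester-forming and carotenoid-cleaving enzymes and retinoic acid hydroxylases, and all 36 symbols were found among the 55357 genes of the table. Messenger RNA was sequenced from 75-day-old mice, using hair follicle stem cells of the back sorted by surface staining (high α6-integrin, EpCAM and CD34 present, Sca1 absent). Every mouse was Ring1a-/- with Ring1bflox/flox alleles and had 1% RU-486 put on its skin each day for 10 days from postnatal day 50, with collection 15 days after the last dose. The 2 Control libraries came from such mice without Cre. The 3 PRC1 i2KO libraries came from mice with the same alleles plus K15-CrePR1, in which a keratin 15 promoter drives a Cre recombinase that RU-486 switches on. PRC1 is the Polycomb complex that ubiquitinates histone H2A through Ring1a or Ring1b, so the comparison is of cells without Ring1a against cells that also lose Ring1b where the Cre acts. Ring1b loss and Cre presence cannot be told apart in this design, and the labels do not say that libraries of 1 group came from separate animals, so each p-value covers the spread of these libraries, which may be technical.

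Retinol circulates bound to the carrier protein encoded by Rbp4 and enters cells through receptors such as the one encoded by Stra6. Inside the cell it is stored as esters or oxidised in steps, first to retinal by alcohol and short-chain dehydrogenases. Retinal is then oxidised, irreversibly, to retinoic acid by Aldh1a enzymes. Retinoic acid binds nuclear receptors, and Cyp26 enzymes hydroxylate it and so end its action. In skin, retinoids are known to act on keratinocyte differentiation, on sebaceous glands and on the hair cycle.

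Per-library values are given below in the order of replicates, 1 and 3 for Control (as numbered in their titles) and 1, 2 and 3 for PRC1 i2KO. Libraries held 8270419 and 32463173 estimated reads for Control and 9675996, 21102727 and 18657555 for PRC1 i2KO. Rnf2, which encodes Ring1b, stood at 67.9 and 57.7 CPM (reads scaled to a common library total) for Control against 48.1, 46.6 and 50.2 CPM for PRC1 i2KO, and reads over a whole gene do not check a deleted exon. Cd34 RNA was at 1548 and 1697 CPM for Control against 11.0, 12.3 and 37.2 CPM for PRC1 i2KO, although the sort gate called for the CD34 protein. Of 12 bulge stem cell markers 11 fell, their summed level going from between 34092 and 34417 CPM to between 7590 and 11444 CPM. Summed markers of upper follicle (9 genes, 1438 to 1500 against 8780 to 8938 CPM), sebaceous gland (10 genes, 224 to 236 against 2777 to 3399 CPM), differentiating epidermis (10 genes, 1275 to 1289 against 2789 to 3985 CPM) and cycling cells (8 genes, 50.6 to 63.9 against 499 to 707 CPM) were higher in PRC1 i2KO. Of the 9 upper follicle genes 8 rose, while Krt80 fell from 769 to 308 CPM on average. The part of all these markers in the differences below was not tested. In bulk RNA, fewer cells of a type and less RNA per cell cannot be told apart.

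The retinoid genes of PRC1 i2KO cells differed from those of the controls at several steps of the pathway. Cyp26b1, which breaks down retinoic acid, fell 39.5-fold. The binding protein gene Crabp1 fell 8.66-fold while its relative Crabp2 rose 19.3-fold. Transcripts of Aldh1a1 and Aldh1a7, barely read in the controls, and of the retinol dehydrogenase genes Adh1 and Rdh1 and the retinal reductase gene Rdh11 rose.

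Of the 36 genes, 25 had enough reads to test, and of these 14 rose, 3 fell and 8 did not pass (edgeR quasi-likelihood test, Benjamini-Hochberg adjusted p under 0.05). Over all 15665 tested genes, 33.9% passed, 18.8% higher and 15.1% lower in PRC1 i2KO. The median log2 fold change was 0.98 over the 25 and -0.01 over all tested genes. Among the 25, Rbp2, Rdh16, Aldh1a1, Aldh1a3 and Aldh1a7 reached the filter's minimum in PRC1 i2KO libraries only. They had to be higher there to be tested, which also raises the median, so the counts and the median are given as a description. In 20 of the 25 the libraries of the groups did not overlap, against 59.5% of all tested genes. The genes that reached the minimum in PRC1 i2KO only are all among these 20, so this count is a description too.

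**Figure D1:**
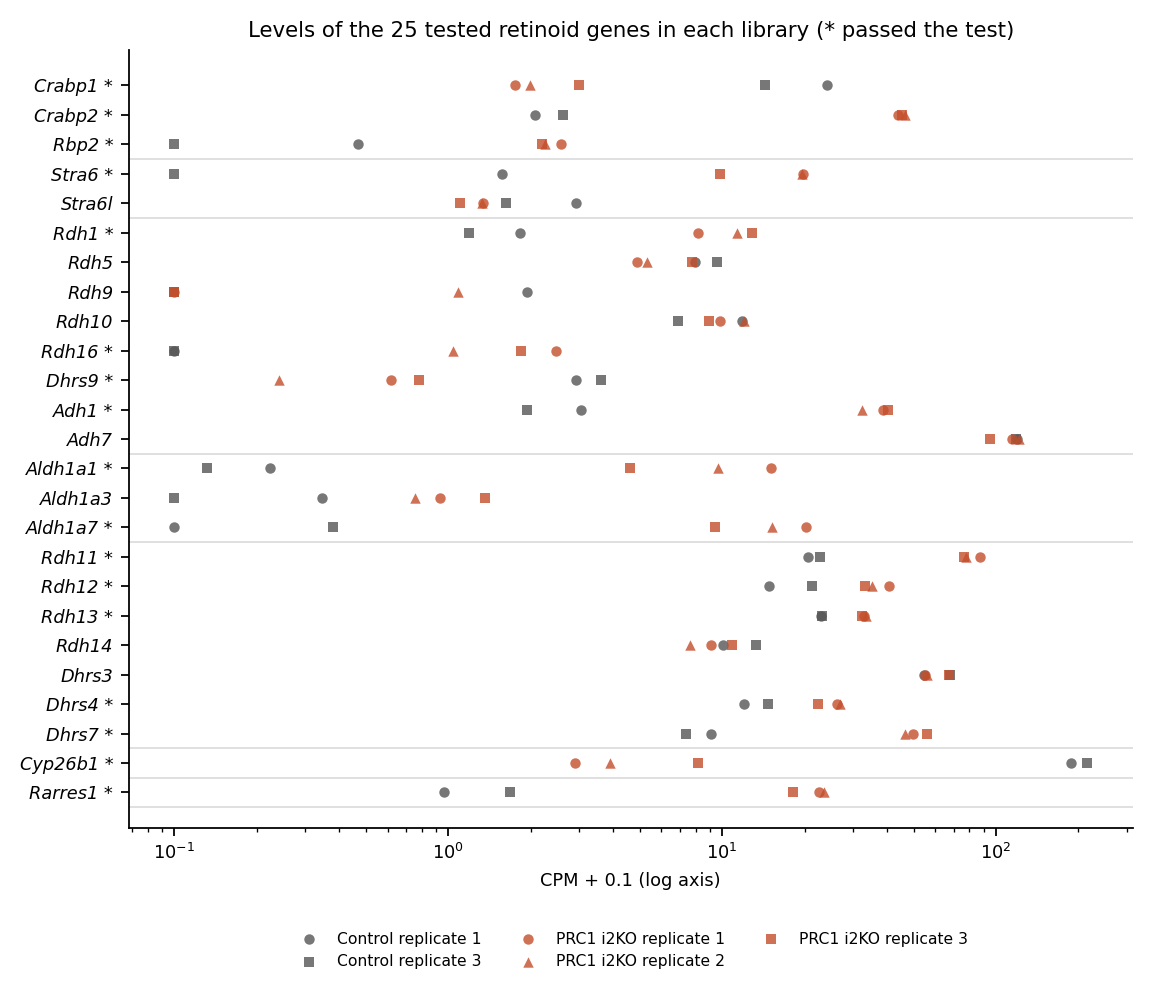
Levels of the 25 tested retinoid genes (CPM plus 0.1, log axis) in each of the 5 libraries, with grey points for Control, red points for PRC1 i2KO, shapes for the replicates, lines between roles and an asterisk at each gene that passed the test. The points of Cyp26b1 lie at 187 and 215 CPM in Control and at 2.80 to 8.05 CPM in PRC1 i2KO, and those of Dhrs3 and Adh7 overlap.

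Breakdown of retinoic acid is the step with the largest fitted fall among the tested members. Cyp26b1 (ENSMUSG00000063415) was read at 187 and 215 CPM in Control against 2.80, 3.81 and 8.05 CPM in PRC1 i2KO. Both controls lay far above all PRC1 i2KO libraries, of which replicate 3 was the highest. The log2 fold change was -5.30 (SE 0.40, edgeR adjusted p = 0.00065), between -5.08 and -5.87 with any 1 library left out. Per gene length, Cyp26b1 was the most abundant of the 36 members in Control, at 82.0 ± 7.96 TPM (SD, n = 2; TPM scales reads to gene length and to a fixed library total), and stood at 1.79 ± 1.07 TPM in PRC1 i2KO (SD, n = 3). The other hydroxylase genes of the family, Cyp26a1 and Cyp26c1, which lie next to each other in the genome, had 0 reads in all 5 libraries. At these depths 3 reads over a group would be 0.0745 CPM for Control and 0.0601 CPM for PRC1 i2KO, limits that cover counting error only.

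Cyp26a1 is a classical gene induced by retinoic acid, and its promoter is printed because it was the 1 member window of 31 that held a DR5 retinoic acid response element, a direct repeat of the receptor half-site with 5 bases between the copies. That element, searched on both strands in the 250 bases before the start site, was in 29 of 32851 windows of RefSeq genes (0.0883%). A match is a description of letters, and no Cyp26a1 transcript was read here. Sequences are from RefSeq on build GRCm38.p6, another build than the mm39 of the deposited data, and run 5′ to 3′ on the strand of the gene. The window of Cyp26a1 is chr19:37697558-37697807 (plus strand), with the element in capitals. The window of Cyp26b1 is chr6:84593811-84594060 (minus strand), with each of its 7 CpG dinucleotides in capitals.
Cyp26a1: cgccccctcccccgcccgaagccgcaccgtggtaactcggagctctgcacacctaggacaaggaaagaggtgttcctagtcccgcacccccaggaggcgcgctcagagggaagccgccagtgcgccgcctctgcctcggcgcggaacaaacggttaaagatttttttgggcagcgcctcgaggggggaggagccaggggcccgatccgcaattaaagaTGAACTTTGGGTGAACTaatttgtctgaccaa
Cyp26b1: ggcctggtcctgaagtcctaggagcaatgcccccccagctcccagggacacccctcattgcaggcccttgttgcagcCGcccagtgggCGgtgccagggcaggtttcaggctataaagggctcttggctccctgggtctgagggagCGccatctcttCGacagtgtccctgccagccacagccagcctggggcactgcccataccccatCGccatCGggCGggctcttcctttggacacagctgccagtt

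The cytoplasmic binding proteins hold retinoids in solution and pass them on, Crabp1 and Crabp2 binding retinoic acid and Rbp2 and Rbp7 binding retinol. Crabp1 (ENSMUSG00000032291) was read at 24.0 and 14.2 CPM in Control against 1.66, 1.88 and 2.90 CPM in PRC1 i2KO. It was lower in every PRC1 i2KO library, and the controls themselves differed (log2 fold change -3.11, SE 0.34, edgeR adjusted p = 0.00012). Crabp2 (ENSMUSG00000004885), known for delivering retinoic acid to its nuclear receptor, was read at 1.97 and 2.52 CPM in Control and at 43.8, 46.4 and 45.4 CPM in PRC1 i2KO. All 3 PRC1 i2KO libraries lay within a narrow band above the controls (log2 fold change 4.27, SE 0.19, edgeR adjusted p = 7.54e-07). On the per-length scale, Crabp2 made up 6.30% and 12.7% of the summed TPM of the pair in Control and 95.6%, 95.3% and 92.8% in PRC1 i2KO. Summed over the 4 binding protein genes, the level was 76.4 and 48.9 TPM in Control and 107, 112 and 115 TPM in PRC1 i2KO.

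Crabp1 is also known from dermal fibroblasts and dermal papilla, cells that a gate on EpCAM, CD34 and high α6-integrin is meant to leave out, and their markers were counted beside it. Of 9 such markers 4 could be tested, of which Col1a1, Col1a2 and Pdgfra fell and Dcn rose (0.12 to 1.94 CPM on average, named after its values were seen), and their sum was 72.4 to 73.8 CPM in the controls but 33.2 to 33.5 CPM in PRC1 i2KO. Most of that sum was Col1a2 (58.7 and 25.2 CPM on average), while Lum, Dpt, Corin, Alx4 and Col3a1 each averaged under 1 CPM in both groups. Their part in the fall of Crabp1 was not tested.

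The promoter of Crabp1 is shown for its CpG dinucleotides, since Polycomb complexes are known to bind at CpG-rich starts. Its 250 bases, chr9:54764498-54764747 (plus strand), hold 12 CpG dinucleotides, in capitals, where the median of all 32851 windows is 6 and their upper quartile 16, so it is not among the richest. Windows of Rarres1 (14) and Dhrs7 (13), which rose, hold more. Among the members with a window, the median was 4.5 for the 12 that rose, 7 for the 3 that fell, 3.5 for the 6 that did not pass and 5 for the 10 not tested.
Crabp1: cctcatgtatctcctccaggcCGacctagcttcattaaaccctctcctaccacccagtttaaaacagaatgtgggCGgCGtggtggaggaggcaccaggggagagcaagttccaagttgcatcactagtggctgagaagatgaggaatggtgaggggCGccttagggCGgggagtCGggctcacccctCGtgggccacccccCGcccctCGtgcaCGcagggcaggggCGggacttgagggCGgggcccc

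Rbp2 (ENSMUSG00000032454), a retinol-binding protein best known from the intestine, had 3 reads in Control replicate 1, 0 in Control replicate 3 and 24, 46 and 40 reads in PRC1 i2KO. The summed reads per effective library differed 29.6-fold (exact 95% binomial interval 9.86 to 146, counting error only), with an edgeR adjusted p of 0.0234. That call was lost without Control replicate 3 (log2 fold change 2.58, edgeR adjusted p = 0.0826), without PRC1 i2KO replicate 1 (0.0602) or without PRC1 i2KO replicate 2 (0.0546). Without Control replicate 1, all control reads were gone. Rbp7 had 6 reads, all in Control replicate 3, and was not tested.

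Uptake of retinol from plasma depends on the carrier Rbp4 and on membrane receptors. Stra6 (ENSMUSG00000032327), the receptor gene, was read at 1.48 and 0 CPM in Control against 19.6, 19.5 and 9.74 CPM in PRC1 i2KO. The level was higher in each PRC1 i2KO library, and the controls disagreed with each other, with 12 reads in the shallower and 0 in the deeper library. The fitted log2 fold change was 5.32 (edgeR adjusted p = 0.0411). It became 11.4 when Control replicate 1 was left out, with no control read left, and 3.45 when Control replicate 3 was. The call was lost without PRC1 i2KO replicate 1, 2 or 3 (edgeR adjusted p = 0.0551, 0.0789 and 0.0954). It was also lost without the filter on low counts (edgeR adjusted p = 0.153) and by DESeq2 (0.0591). Stra6l, which encodes a related receptor, stood at 2.83 and 1.52 CPM in Control and at 1.24, 1.22 and 1.00 CPM in PRC1 i2KO and did not pass (edgeR adjusted p = 0.311). Rbp4 itself had 0 reads in both controls and 5, 9 and 2 reads in PRC1 i2KO, and was too low to test. Set against a floor of 3 reads over the controls this is 4.30-fold higher, leaving out counting error of the PRC1 i2KO reads.

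Oxidation of retinol to retinal is shared between cytosolic alcohol dehydrogenases and membrane-bound short-chain dehydrogenases. Of the 9 member genes of this step 8 were tested, of which 3 rose, 1 fell and 4 did not pass. These 50% called stand beside 33.9% of all tested genes (18.8% higher, 15.1% lower). Rdh16 was tested with 0 control reads, so the counts are a description. Adh1 (ENSMUSG00000074207), a class I alcohol dehydrogenase, was read at 2.95 and 1.84 CPM in Control and at 38.7, 32.3 and 40.3 CPM in PRC1 i2KO. It was higher in all PRC1 i2KO libraries (log2 fold change 4.07, SE 0.25, edgeR adjusted p = 4.31e-06). Its neighbour Adh7, with no protein-coding gene between them, is the class IV enzyme of epithelia and stood at 119.6 and 118 CPM in Control and at 114, 121 and 94.8 CPM in PRC1 i2KO. Those CPM values overlapped, and the fitted difference was -0.11 on the log2 scale (SE 0.12, edgeR adjusted p = 0.509). Per length, Adh1 went from 4.23 and 2.96 TPM to 46.6, 40.1 and 52.4 TPM, a level that overlapped the 53.8, 56.7 and 47.1 TPM of Adh7 in PRC1 i2KO. In Control, Adh7 stood at 64.9 and 72.0 TPM, so that on TPM its groups did not overlap, though it did not pass (limma adjusted p = 0.0781). Adh4, which lies in the same cluster, had 0 reads in all libraries.

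Rdh1, Rdh9 and Rdh16 encode similar retinol dehydrogenases and follow one another in the genome. Rdh1 (ENSMUSG00000089789) was read at 1.72 and 1.09 CPM in Control and at 8.08, 11.2 and 12.7 CPM in PRC1 i2KO, above the controls in each library (log2 fold change 3.02, SE 0.38, edgeR adjusted p = 0.00028). Rdh16 (ENSMUSG00000069456) had 0 reads in both controls and 23, 20 and 33 reads in PRC1 i2KO (edgeR adjusted p = 0.00516). Set against a floor of 3 reads over the controls this is 20.4-fold higher, leaving out counting error of the PRC1 i2KO reads. Rdh9 had 15 reads in Control replicate 1, 21 in PRC1 i2KO replicate 2 and 0 in the other libraries, and did not pass (edgeR adjusted p = 0.71). Fractional counts in all 5 libraries for Rdh1, in 2 for Rdh9 and in 1 for Rdh16 show that reads were shared with similar sequence. The split of these reads, and with it the fold given for Rdh16, is therefore uncertain. Summed, the 3 genes stood at 3.57 and 1.09 CPM in Control and at 10.5, 13.2 and 14.5 CPM in PRC1 i2KO, without overlap.

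Dhrs9 (ENSMUSG00000027068), another retinol dehydrogenase gene, went the other way, with 2.83 and 3.51 CPM in Control against 0.52, 0.14 and 0.68 CPM in PRC1 i2KO. Each PRC1 i2KO library was lower (log2 fold change -2.85, SE 0.72, edgeR adjusted p = 0.0129), on 5, 3 and 13 reads. Leaving out Control replicate 3 ended the call (edgeR adjusted p = 0.131), and the log2 fold change was -3.44 without PRC1 i2KO replicate 3. With the replicate number as a block the adjusted p was 0.0645. Rdh10, the main retinol dehydrogenase of the embryo, did not pass, at 11.7 and 6.81 CPM in Control against 9.74, 11.9 and 8.84 CPM in PRC1 i2KO, which overlapped. It gave 0.17 on the log2 scale (SE 0.30, edgeR adjusted p = 0.711), which turned to -0.039 on log2(TPM + 1) and to -0.20 without Control replicate 3. Rdh5, known from the visual cycle, stood at 7.88 and 9.46 CPM in Control and at 4.77, 5.22 and 7.63 CPM in PRC1 i2KO and did not pass (edgeR adjusted p = 0.194), with fractional counts in 4 libraries.

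The genes placed at the last step, from retinal to retinoic acid, were nearly unread in the controls. Aldh1a1 (ENSMUSG00000053279), a retinaldehyde dehydrogenase gene, had 1 read in each control and 144, 203 and 86 reads in PRC1 i2KO, that is 14.9, 9.54 and 4.53 CPM. All PRC1 i2KO libraries were above both controls, with replicate 1 the highest and replicate 3 the lowest. The summed reads per effective library differed 175-fold (exact 95% binomial interval 48.1 to 1447, counting error only), with an edgeR adjusted p of 0.000233. Its fitted log2 fold change of 7.36 became 6.18 when Control replicate 3 was left out and 8.00 when Control replicate 1 was. Aldh1a7 (ENSMUSG00000024747), the adjacent rodent paralog, stood at 0 and 0.28 CPM in Control and at 20.1, 15.1 and 9.32 CPM in PRC1 i2KO. These libraries were in the same order as for Aldh1a1 (log2 fold change 6.08, SE 0.63, edgeR adjusted p = 0.00012, and 10.7 without Control replicate 3, where no control read is left).

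Both Aldh1a1 and Aldh1a7 had whole counts in every library, and their sum was 0.12 and 0.31 CPM in Control against 13.8 to 35.03 CPM in PRC1 i2KO. Aldh1a3, known from epithelia of the hair follicle and the eye, had 2 and 0 reads in Control and 8, 14 and 24 reads in PRC1 i2KO and did not pass (edgeR adjusted p = 0.0964, and 0.0429 without Control replicate 1). Aldh1a2, the main enzyme of this kind in the embryo, had 13 reads in Control replicate 3 and 0 elsewhere. Per length, the 4 genes together reached 0.24 and 0.63 TPM in Control and 31.2, 22.7 and 14.2 TPM in PRC1 i2KO. Aldh1a7 alone gave 16.25, 12.35 and 7.88 TPM of these sums in PRC1 i2KO, and its activity on retinal was not tested.

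The promoters of the Aldh1a1 and Aldh1a7 pair are printed because the genes are neighbours and rose together. Their windows, chr19:20601718-20601967 (plus strand) and chr19:20727557-20727806 (minus strand), share an identical run of 65 bases, in capitals, that starts 94 bases before each start site. Over a global alignment 66.0% of columns were identical, where the 5 other pairs of member windows that were aligned gave 45.6% to 49.8%. Each window holds 1 CpG. Neither window held a DR5 or DR2 element.
Aldh1a1: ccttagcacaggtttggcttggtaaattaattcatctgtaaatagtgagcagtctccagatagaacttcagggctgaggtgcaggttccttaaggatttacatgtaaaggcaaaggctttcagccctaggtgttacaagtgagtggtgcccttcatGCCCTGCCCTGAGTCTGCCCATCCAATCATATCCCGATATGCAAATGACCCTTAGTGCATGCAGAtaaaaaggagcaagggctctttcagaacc
Aldh1a7: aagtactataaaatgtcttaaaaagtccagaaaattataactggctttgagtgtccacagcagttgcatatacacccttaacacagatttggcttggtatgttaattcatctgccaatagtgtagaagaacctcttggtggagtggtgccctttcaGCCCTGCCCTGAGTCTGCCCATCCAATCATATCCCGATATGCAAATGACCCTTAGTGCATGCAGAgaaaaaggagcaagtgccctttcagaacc

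Enzymes that can reduce retinal back to retinol were already read at moderate levels in the controls, and 5 of 7 rose, none fell and 2 did not pass. These 71.4% called stand beside 33.9% of all tested genes, of which 18.8% were higher and 15.1% lower, and are a description. Rdh11 (ENSMUSG00000066441) went from 20.4 and 22.6 CPM to 87.3, 77.9 and 76.3 CPM (log2 fold change 1.89, SE 0.13, edgeR adjusted p = 6.79e-06). Its neighbour Rdh12 went from 14.8 and 21.2 CPM to 40.4, 35.2 and 33.2 CPM (log2 fold change 0.98, SE 0.19, edgeR adjusted p = 0.0031). In the 3 deepest libraries, with 1 control, the log2 fold change of Rdh12 was 0.70. Both genes of this adjacent pair were higher in all PRC1 i2KO libraries. Dhrs7, a short-chain dehydrogenase gene whose part in retinoid metabolism is less settled, went from 8.98 and 7.28 CPM to 49.7, 46.4 and 55.8 CPM (log2 fold change 2.67, SE 0.17, edgeR adjusted p = 5.57e-06). Dhrs4 went from 11.9 and 14.6 CPM to 26.2, 26.9 and 22.4 CPM (log2 fold change 0.91, edgeR adjusted p = 0.00417), though on TPM its groups overlapped, at 24.2 and 41.9 TPM against 44.3, 57.7 and 39.9 TPM (limma adjusted p = 0.171). Rdh13 showed the smallest called change, from 22.8 and 23.1 CPM to 33.0, 33.3 and 32.4 CPM (log2 fold change 0.52, edgeR adjusted p = 0.0172). Its groups were tight and apart, but the call was lost without Control replicate 1 (0.0785), Control replicate 3 (0.087) or PRC1 i2KO replicate 2 (0.0551) and on TPM (limma adjusted p = 0.092).

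Dhrs3, the main retinal reductase and itself a gene that retinoic acid induces, did not differ beyond the spread, at 54.4 and 67.6 CPM in Control against 54.7, 56.1 and 67.0 CPM in PRC1 i2KO. Its log2 fold change was -0.05 (SE 0.14, edgeR adjusted p = 0.831), and leaving out Control replicate 3 or PRC1 i2KO replicate 1 turned it to 0.12 and 0.02. Rdh14 stood at 9.97 and 13.2 CPM in Control and at 9.02, 7.52 and 10.7 CPM in PRC1 i2KO and did not pass (edgeR adjusted p = 0.326). Summed over the 7 genes, the level per length was 167 and 207 TPM in Control and 291, 286 and 310.4 TPM in PRC1 i2KO.

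The 4 member genes of ester formation, isomerisation and carotenoid cleavage were at or near 0 in all libraries, and none could be tested. Other genes that form or split esters, Dgat2 among them, were read and are described further below. Lrat, which makes retinyl esters, had 2 and 19 reads in Control and 3, 7 and 0 reads in PRC1 i2KO. The carotenoid oxygenase genes Bco1 and Bco2 had at most 13 and 8 reads in any library, and Rpe65, the isomerase of the eye, had 0.

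Rarres1 and Rarres2 carry their names as genes that respond to retinoic acid receptors. Rarres1 (ENSMUSG00000049404), which encodes a membrane protein, was read at 0.86 and 1.59 CPM in Control and at 22.4, 23.5 and 18.1 CPM in PRC1 i2KO. It was higher in all PRC1 i2KO libraries (log2 fold change 3.98, SE 0.31, edgeR adjusted p = 1.5e-05, and 4.61 without Control replicate 3). Rarres2, which encodes the secreted protein chemerin, had 4 reads in Control replicate 3, 5 in PRC1 i2KO replicate 2 and 0 elsewhere.

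**Figure D2:**
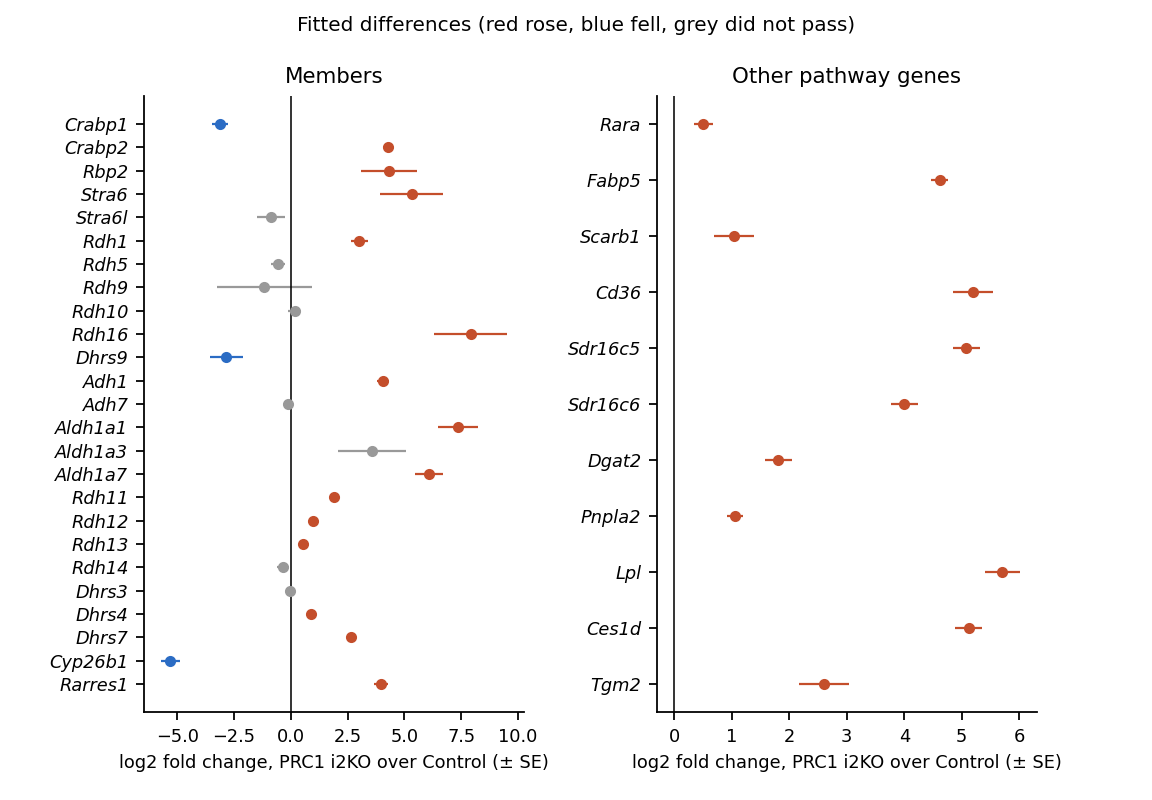
Fitted log2 fold changes of PRC1 i2KO over Control with standard errors derived from the F statistic of the test (bars). The 25 tested members are on the left and 11 other retinoid pathway genes on the right. Red genes rose, blue genes fell and grey genes did not pass. Cyp26b1 (-5.30), Crabp1 (-3.11) and Dhrs9 (-2.85) lie left of 0, and the value of Rdh16, which has no control read, depends on the fit's prior count.

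Levels per length changed order among the members. In Control the highest were Cyp26b1 (82.0 TPM), Dhrs3 (75.5 TPM), Adh7 (68.5 TPM) and Crabp1 (56.1 TPM), and neighbours in that order overlapped between libraries. In PRC1 i2KO the highest was Crabp2, at 92.7, 99.7 and 99.7 TPM, above every library of Dhrs3 (60.8 to 83.1 TPM). Dhrs3 and Dhrs7 (60.3 to 74.8 TPM) overlapped, and Adh7 (47.1 to 56.7 TPM) and Dhrs4 (39.9 to 57.7 TPM) came next. Over all 36 genes the sum was 423 and 454 TPM in Control and 589, 588 and 602 TPM in PRC1 i2KO. TPM is a share of each library's transcripts, and on this scale the median tested gene moved by -0.13 (log2(TPM + 1)).

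**Figure D3:**
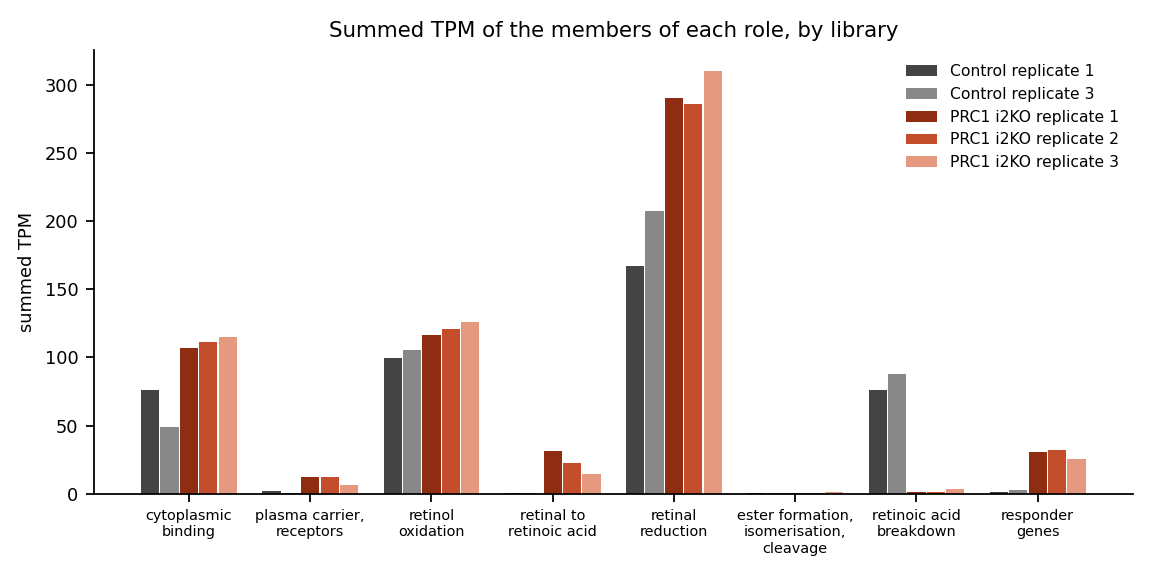
Summed TPM of the members of each role (vertical axis from 0) in each library, with grey bars for the 2 Control and red bars for the 3 PRC1 i2KO libraries. Breakdown of retinoic acid stands at 76.4 and 87.7 TPM in Control and at 1.02 to 3.01 TPM in PRC1 i2KO. The genes placed at the step from retinal to retinoic acid, Aldh1a7 included, stand at 0.24 and 0.63 against 14.2 to 31.2 TPM.

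Members did not vary in the same way among the PRC1 i2KO libraries. For 12 of the 17 called members, replicate 3 was the PRC1 i2KO library nearest to the control mean on the log scale, as it was for 58.5% of all 5310 called genes. Cyp26b1, Crabp1, Aldh1a1, Aldh1a7 and Stra6 were among these 12. Crabp2 and Rdh1 were nearest in replicate 1, and Rdh16, Adh1 and Dhrs7 in replicate 2. Bulge marker sums were highest in replicate 3 too (11444 CPM against 7590 and 8057 CPM), and the part of that difference in these genes was not tested.

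Outside the 36 members, 40 genes of the pathway were followed in 5 lists, of which 26 could be tested, 14 rose, 1 fell and 11 did not pass. Their 57.7% called stands beside the 33.9% of all tested genes, of which 18.8% were higher and 15.1% lower. A gene could enter the test through 1 group alone, as Lrp2 did with 0 control reads, so these counts and those of the lists below are a description. Of 4 receptor genes tested, Rara rose, from 38.3 and 33.6 CPM to 42.3, 51.3 and 58.8 CPM (log2 fold change 0.51, edgeR adjusted p = 0.0326), a call that ended without either control (0.0593 without replicate 1, 0.208 without replicate 3), without PRC1 i2KO replicate 2 (0.0898) or 3 (0.0517), with the replicate block (0.0759) and on TPM (limma adjusted p = 0.277). The abundant receptor genes Rarg and Rxra, named after their values were seen, averaged 440.1 and 428 CPM in Control against 402 and 468 CPM in PRC1 i2KO (edgeR adjusted p = 0.372 and 0.408). Rarb, a receptor gene that retinoic acid induces and likewise named after its values were seen, had 0 reads in Control and 8 in PRC1 i2KO over all libraries.

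Among other genes of retinoid binding and uptake, 4 of 5 tested rose. These 80% called stand beside 33.9% of all tested genes, of which 18.8% were higher and 15.1% lower. Fabp5, whose product can carry retinoic acid as well as fatty acids, went from 13.3 and 10.0 CPM to 285, 282 and 269 CPM (log2 fold change 4.61, edgeR adjusted p = 1.22e-07). Cd36, a lipid uptake receptor gene, rose 36.8-fold. Scarb1, which takes up lipoprotein lipids and carotenoids, rose 2.06-fold. Its call was lost without PRC1 i2KO replicate 1 (edgeR adjusted p = 0.125) and on TPM (limma adjusted p = 0.36), where its groups overlapped. In fits that leave 1 control its log2 fold change was 1.15 without Control replicate 1, 0.91 without Control replicate 3 and 0.89 in the 3 deepest libraries.

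Of 4 other retinol and retinal enzyme genes tested, the epidermal retinol dehydrogenase genes Sdr16c5 and Sdr16c6 rose, from 1.61 to 53.1 CPM and from 2.62 to 44.8 CPM on average (edgeR adjusted p = 7.33e-07 and 3.11e-06). Of 7 tested genes that form or split lipid esters, retinyl esters included, 6 rose and 1 fell. These 100% called, and 50% of the 4 enzyme genes above, stand beside 33.9% of all tested genes (18.8% higher, 15.1% lower). Lpl, Ces1d, Dgat2 and Pnpla2 rose 52.2-fold, 34.8-fold, 3.51-fold and 2.09-fold. Lipe, the hormone-sensitive lipase gene and the 1 that fell, is named after its values were seen (2.31-fold lower, edgeR adjusted p = 0.00326). Its call was lost on TPM and in the 3 deepest libraries, where 0 of the pathway genes were called lower. These enzymes also act on other lipids, and all 10 sebaceous gland markers rose beside them, whose part was not tested.

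Of 9 genes known as targets of retinoic acid outside the members 6 were tested, of which 1 passed (16.7%, against 33.9% of all tested genes). Tgm2, a transglutaminase gene and the 1 that passed, rose from 0.98 and 3.27 CPM to 15.2, 16.8 and 11.2 CPM (log2 fold change 2.60, edgeR adjusted p = 0.00168, and 3.86 without Control replicate 3). The other 5 did not pass, with adjusted p from 0.224 to 0.888. Cdx1 and Stra8, named after their values were seen, had 0 reads in all libraries.

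**Figure D4:**
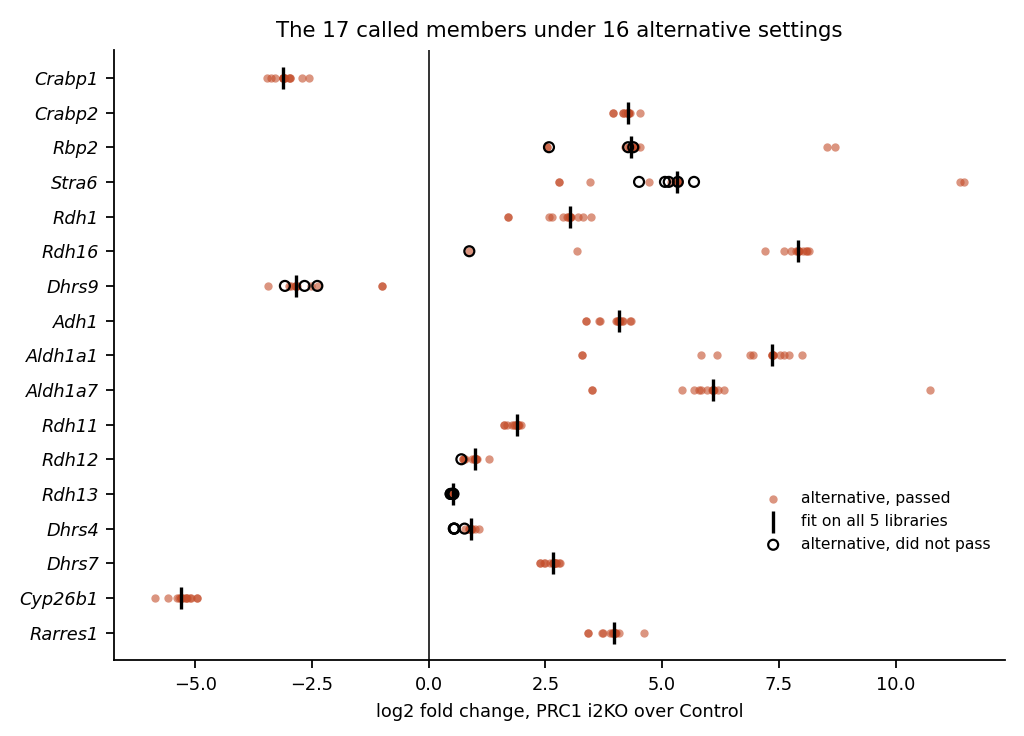
Log2 fold change of PRC1 i2KO over Control for the 17 called members, with a bar for the fit on all 5 libraries and points for 16 alternative settings, open where the gene did not pass. No point changes sign, and 10 of the 17 passed under all 16, while Rbp2, Stra6, Rdh16, Dhrs9, Rdh12, Rdh13 and Dhrs4 each have open points.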

How the data were processed

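The authors deposited 1 table with expected counts and TPM for each of 5 libraries. Tools listed in the submitters' processing notes are RSEM 1.3.3, STAR 2.7.9a and DESeq2 1.38.2, with build mm39 and no role for each. The annotation and the strand setting of the counting: not given in the sources used here. TPM, per the file headers, is scaled to gene length and a fixed total and keeps no depth. Estimated reads are shared between similar genes, so close paralogs are uncertain.

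Rounded expected counts went into edgeR 4.0.16 under R 4.3.3 (filterByExpr, TMM, robust quasi-likelihood F test, genotype as the only term, Benjamini-Hochberg over 15665 genes). CPM uses TMM-scaled library sizes, and n is 2 and 3. Each SE is the size of the log2 fold change divided by the square root of its F statistic, and is approximate where a group has few reads. Folds against groups of 0 reads use a floor of 3 reads over the group and leave out counting error in the other group. Alternatives used DESeq2 1.42.0 and limma 3.58.1. The fit was tested on simulated data.

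The members and lists were chosen with earlier results of these data known. All members are named, with up to 4 called genes of smallest adjusted p from each other pathway list, except 1 gene that is not reported here and stands only in the counts. Other pathway genes and cell type markers given by name fall outside this rule and were picked with their values known. Promoters came from RefSeq (GRCm38.p6) for 31 of 36 members, taking the window nearest a principal GENCODE M21 start. Libraries of 1 group differed beyond counting noise in every pair (chi-square over degrees of freedom 10.3 to 42.6), so none were merged.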

Additional observations from a re-analysis of the deposited data

How the results depend on the processing

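Under 16 alternatives the number of called members lay between 13 and 17 (17 in the fit on all 5 libraries), and 10 members passed in every one. Over all genes, 5310 were called (2939 higher, 2371 lower). On log2(TPM + 1), log2(TPM + 0.1) and unfiltered log2(TPM + 1), 1886, 1909 and 1393 were called higher and 2240, 2086 and 1603 lower (2996 in all on the last, which tests more genes). Higher genes were thus 45.7%, 47.8% and 46.5% of calls on TPM, against 55.3% on counts. The 3 deepest libraries alone gave 2745 calls, 1736 higher and 1009 lower, with fewer samples. Leaving out 1 library gave 3322 to 5856 calls, 1963 to 3099 higher and 1359 to 2757 lower, lowest without Control replicate 3. Of other pathway genes, 0 were called lower on TPM in any of its 3 forms or in the 3 deepest libraries, in place of 1 (Lipe), and the cause was not tested. Among single members, Rdh9 turned from -1.18 to 6.61 in the 3 deepest libraries and lay between -2.35 and 5.87 with 1 library left out. Rdh10 turned from 0.17 to -0.039, -0.038 and -0.039 on the 3 forms of TPM and lay between -0.20 and 0.58 with 1 library left out, and Dhrs3 between -0.19 and 0.12. None of the 3 was called.

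The titles, whose numbers are used here, number libraries 1 and 3 in both groups. The description of Control replicate 3 numbers it 2 instead, and no label ties same-numbered libraries. Their deviations from the group means had correlations of 0.07 and 0.11 over genes. With 2 controls the deviations of 1 mirror those of the other, so these values cannot show whether libraries were paired. With the replicate number as a block, 4421 genes were called, 2521 higher and 1900 lower, and 14 members rose and 2 fell. Read totals limit what can be seen of genes such as Rbp2, Aldh1a3 and Rbp4, with 3 or fewer control reads.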

Other observations

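The members Aldh1a2 and Rbp7 were read in 1 library only and were not tested. All 13 reads of Aldh1a2 and all 6 of Rbp7 were in Control replicate 3, the deepest library. Rbp4, a gene also known from adipocytes, had 0 reads in Control and 2 to 9 reads in each PRC1 i2KO library. The sum of 7 adipocyte markers went from between 0.12 and 0.49 CPM to between 0.80 and 1.90 CPM, but not all of them went that way. On average Fabp4 and Retn went from 0 to 0.33 and 0.06 CPM, while Lep went from 0.31 to 0 CPM. Of the 7 markers, Adipoq, Plin1 and Cfd had 0 reads in all 5 libraries. Cidec, the 1 that could be tested, went from 0 to 0.81 CPM on average (edgeR adjusted p = 0.0184). With 0 CPM in Control it had to be higher in PRC1 i2KO to be tested, so its call is a description. The part of these markers in the reads of Rbp4 was not tested.

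Of the 31 promoter windows, 8 held the letters TATAAA on either strand (12.4% of all windows do), among them those of Cyp26b1, Dhrs9, Rbp2, Rdh16, Aldh1a7 and Adh7. The half-site AGGTCA was in 6 (and in 4607 of all 32851 windows), a motif that can overlap a DR element, and a DR2 element in 0 (0.174% of all windows).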
